A study of Mus musculus with 21 samples.

Results

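The urea cycle genes Cps1, Otc, Ass1, Asl, Arg1, Nags, Slc25a15 and Slc25a13 were followed through 3 tissues of newborn mice, namely brain, liver and skin. They were chosen by symbol from the pathway, with earlier results of these data known, and all 8 were found among the 24391 genes counted in each of 21 libraries. The libraries came from C57BL/6 mice at P0, the day of birth, with 1 library per mouse and tissue. In each tissue 2 mice were heterozygous for a Jak1 knock-in allele (Jak1 KI +/-, KI) and 5 were wild type (WT). Jak1 is the kinase that cytokine receptors use to switch on STAT transcription factors, and the allele was made in C57BL/6J with CRISPR/Cas9. It exchanges 1 histidine of the protein for aspartic acid and carries 2 silent changes beside it, so the number of reads on Jak1 does not check the genotype. The heterozygotes descended from 1 mosaic male founder, and no treatment is named. The sexes are not given. Reads from Y-linked genes were high in KI 2 and WT 3 in all 3 tissues and low in the other 5 mice.

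The urea cycle turns ammonia, the toxic nitrogen waste of amino acid breakdown, into urea, and the complete pathway operates in hepatocytes. N-acetylglutamate synthase (Nags) makes the compound without which carbamoyl phosphate synthetase 1 (Cps1) is inactive, and Cps1 fixes ammonia inside the mitochondrion. Ornithine transcarbamylase (Otc) forms citrulline there, argininosuccinate synthase (Ass1) and lyase (Asl) convert citrulline to arginine in the cytosol, and arginase 1 (Arg1) splits arginine into urea and ornithine. The carriers Slc25a15 (ornithine and citrulline) and Slc25a13 (citrin, aspartate and glutamate) connect the mitochondrial and cytosolic steps. Ass1 and Asl also supply arginine in many other cells, for protein and for nitric oxide, and the liver takes up its urea cycle activity around birth.

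One member cannot be measured cleanly by read counts, and its sequence is shown for that reason. In the mm9 genome (NCBIM37), Ass1 lies on the plus strand of chromosome 2 from 31325727 to 31376192 with 16 exons in its longest coding transcript. A near copy with its own entry in the counts, Gm5424, lies on the plus strand of chromosome 10 from 61533764 to 61535357. Whether the reads counted on Gm5424 came from its own transcripts was not tested. Over 1594 aligned bases it is 99.2% identical to the 1696-base Ass1 transcript, with 10 mismatches and 2 gaps, and only 6 of the mismatches fall in the 1239 coding bases. The stretch below covers coding bases 321 to 520 of Ass1 and chr10:61534191-61534390 of Gm5424, 200 bases each, with the differing bases in capitals.
Ass1: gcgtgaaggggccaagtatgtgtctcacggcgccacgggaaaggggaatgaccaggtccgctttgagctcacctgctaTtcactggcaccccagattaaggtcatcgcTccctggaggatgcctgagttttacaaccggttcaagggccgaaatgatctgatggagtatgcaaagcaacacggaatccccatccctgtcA
Gm5424: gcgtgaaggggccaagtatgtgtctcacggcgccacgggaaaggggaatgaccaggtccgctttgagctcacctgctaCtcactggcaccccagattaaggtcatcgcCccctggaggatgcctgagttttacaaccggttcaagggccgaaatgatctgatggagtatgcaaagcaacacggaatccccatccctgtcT
Counted from 1 at the 5′ end of this stretch, with the Ass1 base first, the copies differ at T79C, T109C and A200T. Of 1596 windows as long as a read before trimming, 778 (48.7%) were letter for letter the same in both copies. A read inside them cannot be told apart by its own bases, and a read across a mismatch can. The libraries were read as paired ends, and these windows do not consider a mate that crosses a mismatch. The deposited counts are also named for a length of 75 bases, and of 1622 windows of that length, tried after the data had been seen, 924 (57.0%) were the same. The length of the reads that were counted is not known here. A search of the genome with the transcripts of the other 7 members found no second match of at least 150 bases at 85% identity or more. Ass1 is therefore given below both alone and as the sum with Gm5424, a sum added after the data had been seen.

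The bases just before the start site are shown for 3 members that differed in their levels outside the liver. The RefSeq promoter table (GRCm38.p6) held entries for Ass1, Nags, Otc, Slc25a13 and Slc25a15, and the 250 bases before the start are printed for 3 of them, 5′ to 3′ on the strand of the gene, with each CpG pair in capitals. The Otc window lies on the plus strand at chrX:10252055-10252304, the Ass1 window on the plus strand at chr2:31470020-31470269, and the Slc25a15 window on the minus strand at chr8:22398278-22398527.
Otc: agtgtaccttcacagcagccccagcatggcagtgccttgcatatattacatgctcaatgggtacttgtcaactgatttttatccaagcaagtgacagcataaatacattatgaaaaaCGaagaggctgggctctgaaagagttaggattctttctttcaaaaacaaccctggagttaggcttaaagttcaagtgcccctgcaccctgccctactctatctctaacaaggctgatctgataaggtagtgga
Ass1: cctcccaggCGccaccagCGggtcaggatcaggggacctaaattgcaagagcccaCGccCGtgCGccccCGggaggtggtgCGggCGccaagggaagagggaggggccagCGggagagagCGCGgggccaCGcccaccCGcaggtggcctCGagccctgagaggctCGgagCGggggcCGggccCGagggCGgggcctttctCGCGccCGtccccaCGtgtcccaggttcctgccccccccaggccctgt
Slc25a15: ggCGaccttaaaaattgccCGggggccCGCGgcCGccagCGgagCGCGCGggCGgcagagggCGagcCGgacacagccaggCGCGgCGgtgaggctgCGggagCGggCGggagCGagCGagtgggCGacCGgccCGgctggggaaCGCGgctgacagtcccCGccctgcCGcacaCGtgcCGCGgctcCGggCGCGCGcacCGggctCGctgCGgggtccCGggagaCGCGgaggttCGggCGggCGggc
Otc, which was close to 0 outside the liver, has 1 CpG pair in this window. Ass1 has 23 and Slc25a15 has 43, and a second Slc25a15 start, not printed, has 11. Slc25a13, which like Ass1 and Slc25a15 was counted in every library, also has 11. Nags has 11 as well, although it was close to 0 outside the liver like Otc. The median over all 32851 promoters was 6 CpG pairs. None of the 6 member windows, on either strand, held the searched letters of C/EBP (TTGCGCAA), HNF4A (CAAAGTCCA), STAT (TTCNNNGAA), CREB (TGACGTCA), the glucocorticoid receptor (TGTTCT, 1 arm of its site) or the TATA box (TATAAA). Between 0.164% and 16.1% of all promoters held them, and no string contains another, although TGTTCT can share bases with TTCNNNGAA. With 5 genes this is a description of the windows only.

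Between 26549326 and 38388133 reads were counted on genes per library. Levels are given as CPM, the counts on a gene scaled to 1000000 counts on all genes. Levels of different genes are set side by side only as RPKM, which is CPM per kilobase of the longest coding transcript. The labelled tissues carried their own markers: 9 hepatocyte markers summed to 227081 CPM or more in every liver, 5 neuron markers to 6185 CPM or more in every brain, and 6 fibroblast markers to 63322 CPM or more in every skin. In the brain and the skin the hepatocyte sum came mostly from Ttr and Trf (71.5% or more), which other cells also make, and albumin (Alb) had 6.88 CPM or less in the brains and 29.0 CPM or less in the skins. The liver of WT 4 and the skin of WT 2 stood apart for these genes. The skin of WT 2 carried 10 gut epithelium genes, a list put together after its values were seen, at 1029 CPM in sum against 2.08 to 4.36 CPM in the other 6 skins. The liver of WT 4 is described with the members it touches. In bulk tissue, fewer cells of a type and less RNA per cell cannot be told apart. The study's methods give lower RNA integrity for the skin samples than for the other samples. Tissue and RNA integrity therefore cannot be told apart where skin is compared with brain or liver.

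The first question was how strongly the newborn liver expresses each step. In the WT livers the 8 genes together took 0.370% to 0.636% of all counts on genes, and Cps1 alone made up 59.2% to 65.5% of that share. Per length, 2 genes led. Cps1, the ammonia-fixing enzyme, had 546 ± 118 RPKM (SD, n = 5) and Arg1, the last step, 568.4 ± 154 RPKM, at ranks 62 and 61 among 19190 genes. Their ranges overlapped (395 to 717 RPKM for Cps1 and 464 to 840 RPKM for Arg1).

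Below this pair came Slc25a13 with a median of 112 RPKM, Asl with 75.3 RPKM and Ass1 with 71.5 RPKM. The lowest Slc25a13 value, 96.2 RPKM, lay under the highest Asl value, 132 RPKM, and the Asl and Ass1 ranges overlapped as well, while Arg1 and Slc25a13 did not overlap. Counted together with Gm5424, Ass1 reached 488 ± 108 RPKM (SD, n = 5), rank 71, so its place in this order depends on how reads of the near copy are assigned. Otc followed with a median of 46.5 RPKM and Slc25a15 with 28.6 RPKM, and their ranges overlapped only through WT 4. Nags, whose product activates Cps1, was the lowest in every WT liver with 13.9 to 17.6 RPKM and did not overlap with any other member. A total of 17.2% of genes lay above it.

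**Figure D1:**
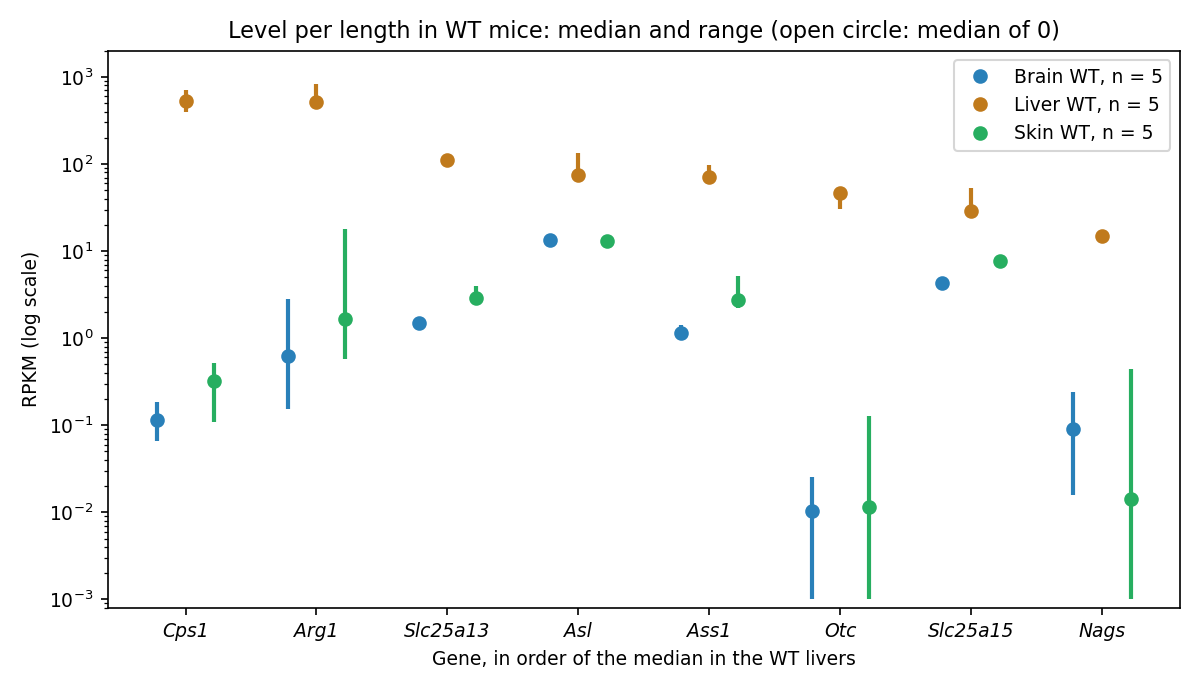
Level per length (RPKM, log scale) of the 8 genes in the WT mice, with the median as a point and the range of 5 mice as a line, and a line that reaches the lower edge includes mice with no counts. Cps1 and Arg1 stand highest in the liver at medians of 531 and 512 RPKM, and Asl and Slc25a15 are the highest in the brain and the skin with Ass1 counted alone.

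The second question was which members are expressed outside the liver. All 8 were higher in the liver than in the brain and than in the skin of the WT mice (edgeR quasi-likelihood test on 15 WT libraries, adjusted p under 0.1 and at least 2-fold). Among the 17071 genes tested, 29.0% were called higher and 32.3% lower in the liver than in the brain, and 18.5% higher and 27.1% lower than in the skin. The fitted log2 differences between liver and brain had a median of 7.52 over the members and -0.06 over all genes tested. Between liver and skin these medians were 6.69 and -0.10. Because a few genes take many of the liver counts, scaling by library totals alone moved the median of all genes to -0.85 against the brain and -0.81 against the skin, with the members at 6.73 and 5.94. Scaled this way, 20.6% of genes were higher and 46.6% lower in the liver than in the brain, and 11.9% higher and 42.5% lower than in the skin. All 8 members stayed called in each of these fits.

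The size of the liver excess differed between members. Otc and Nags, both mitochondrial, were nearly absent elsewhere. In the 5 WT brains Otc had 4 counts in sum, or 0.0258 CPM (exact Poisson 95% interval 0.00703 to 0.0660), and in the 5 WT skins 17 counts, or 0.108 CPM (0.0630 to 0.173), 11 of them from WT 5. The liver level of 134 CPM was thus 5182 times (interval 2024 to 19020) that of the brain and 1236 times (772 to 2121) that of the skin. Nags had 30 counts in the WT brains and 28 in the WT skins, against 31.5 CPM in the liver, which was 163 times (114 to 242) and 177 times (122 to 266) higher. Of the 28 skin counts of Nags, 26 came from WT 2, the library with the gut epithelium genes, and the other 4 WT skins had 2 in sum. These intervals cover counting error only. The Otc and Nags ratios use library totals alone, while the folds and log2 differences given for the other members come from the fits. With library totals alone the median log2 difference of the members between liver and brain was 6.73, against 7.52 above. The ratios and the fitted folds therefore cannot be ranked side by side.

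Cps1 was also close to background outside the liver, with 0.369 to 1.03 CPM in the WT brains and 0.602 to 2.86 CPM in the WT skins against 2192 to 3983 CPM in the WT livers. Its log2 difference was 12.93 ± 0.56 (SE) between liver and brain (edgeR adjusted p = 4.18e-12) and 11.49 ± 0.52 between liver and skin (edgeR adjusted p = 2.98e-11). Arg1 varied widely between mice: the WT brains had 4.18, 0.226, 2.16, 0.924 and 0.640 CPM for WT 1 to 5, and the WT skins 1.42, 26.4, 0.860, 2.46 and 7.82 CPM. The high skin values were those of WT 2 and WT 5. Arg1 is also an enzyme of some macrophages and of other epithelia. The 3 markers of alternatively activated macrophages summed to 182 CPM in the skin of WT 2, 196 CPM in that of WT 5 and 192 to 310 CPM in the others. The source of the high Arg1 values in the skin was not tested.

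Asl and Slc25a15 were the broadly expressed members. Asl had 28.3 to 37.2 CPM in the WT brains and 30.7 to 32.2 CPM in the WT skins, and 157 to 319 CPM in the WT livers. Its liver level was 11.0-fold that of the brain (log2 difference 3.45 ± 0.18 SE, edgeR adjusted p = 5.13e-11) and 10.8-fold that of the skin (3.44 ± 0.18, edgeR adjusted p = 1.80e-10). Slc25a15 had 13.0 to 17.0 CPM in the WT brains, 26.1 to 30.1 CPM in the WT skins and 97.3 to 184 CPM in the WT livers. Liver excess was 13.5-fold over brain and 6.96-fold over skin for this carrier, the smallest among the members in the skin contrast. Per length, with Ass1 counted alone, Asl was the highest member in the brain (13.6 ± 1.31 RPKM, SD, n = 5) and in the skin (13.0 ± 0.266 RPKM), followed by Slc25a15 (4.33 ± 0.490 and 7.92 ± 0.463 RPKM).

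Ass1 and Slc25a13 lay in between. Slc25a13 had 4.02 to 5.50 CPM in the WT brains and 7.47 to 12.4 CPM in the WT skins, and the liver was 124-fold and 57.4-fold higher. Ass1 alone had 1.84 to 2.39 CPM in the WT brains and 3.75 to 8.78 CPM in the WT skins, and summed with Gm5424 7.53 to 13.8 CPM and 18.9 to 46.1 CPM. The log2 difference between liver and brain was 6.81 ± 0.27 (SE) for Ass1 and 6.98 ± 0.31 for the sum, and between liver and skin 5.36 ± 0.25 and 5.62 ± 0.29. The near copy changed these values by no more than the SE of the sum. As a sum, Ass1 had 6.73 RPKM in the brain, above Slc25a15 and below Asl, and 16.3 RPKM in the skin, above both.

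**Figure D2:**
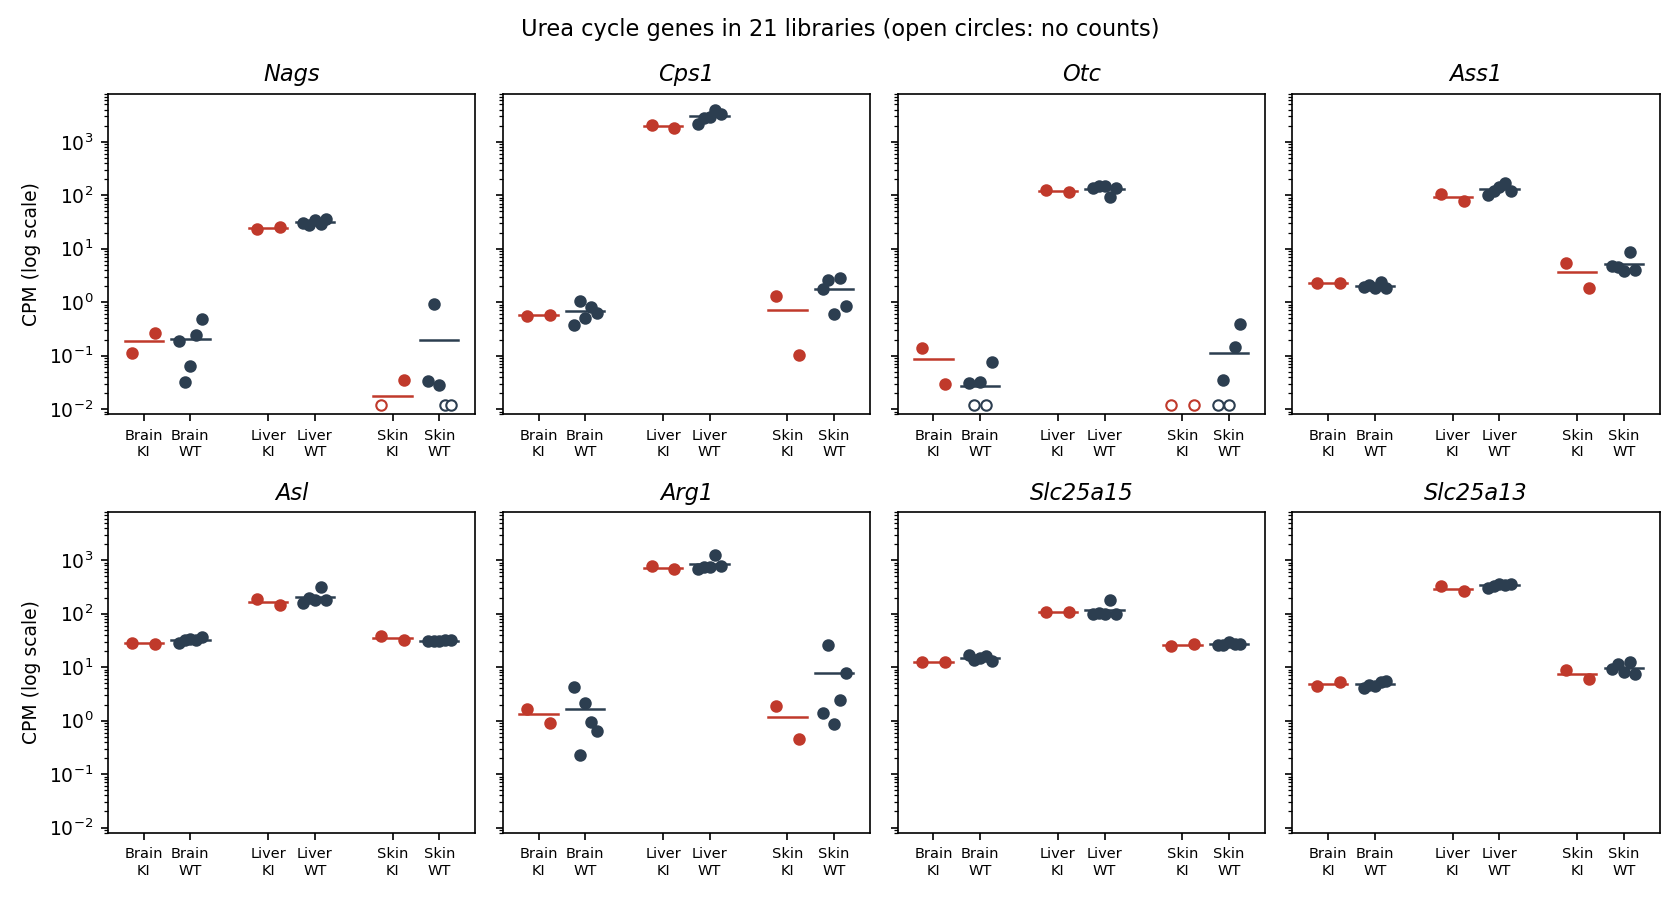
CPM (log scale) of each member in the 21 libraries, by tissue and genotype, with 1 point per mouse, a line at the group mean and open circles at the lower edge for libraries with no counts. Every member is highest in the livers, Otc and Nags have at most 26 counts in a library of another tissue, and Asl and Slc25a15 stay above 10 CPM in all 21 libraries.

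Between skin and brain most members were higher in the skin. Of 17071 genes, 28.4% were called higher and 25.5% lower in the WT skins than in the WT brains, and 5 of the 8 members were called higher (Arg1, Ass1, Cps1, Otc and Slc25a13), with 0 lower and Nags alone below 0. Ass1 was 2.72-fold higher (log2 1.44 ± 0.23 SE, edgeR adjusted p = 3.68e-05), Cps1 2.71-fold (1.44 ± 0.41, edgeR adjusted p = 0.00443) and Slc25a13 2.16-fold (1.11 ± 0.15, edgeR adjusted p = 4.91e-06). Slc25a15 was 1.94-fold higher (edgeR adjusted p = 9.79e-05), just under the limit of 2-fold. Asl showed no difference beyond its error at 0.02 ± 0.17 and was slightly below 0 with other scalings.

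Some of these calls depended on single mice. Arg1 was higher in the skin by 2.27 ± 0.81 (SE) on the log2 scale (edgeR adjusted p = 0.0187), but by 0.78 without WT 2 (edgeR adjusted p = 0.300), and by 1.75 with the mouse as a block (edgeR adjusted p = 0.141). Otc rested on 4 and 17 counts, and its adjusted p of 0.0908 in edgeR became 0.124 with the block, 0.129 without WT 2, 0.254 without WT 4 and 0.279 without WT 5. Nags was at -0.05 ± 0.93, and without WT 2 it was called lower in the skin at -3.49 (edgeR adjusted p = 0.00112). The mouse block thus left 3 members called, and leaving out WT 2 left 3 called higher and 1 lower.

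The third question was whether the Jak1 allele changed these genes, and it was asked first in the liver. Among the 14966 genes tested there, 3.89% were called higher and 1.68% lower in the KI livers (edgeR, adjusted p under 0.1). All 8 members were tested and 0 were called. Each fitted difference was below 0, from -0.66 for Cps1 to -0.12 for Slc25a15, with a median of -0.28 on the log2 scale against -0.02 over all genes. The median of the members was -0.14 without KI 2 and -0.13 with the replicate number as a block, where 2 members (Arg1 and Slc25a15) were above 0. Cps1, Nags and Ass1 had an unadjusted p under 0.05 in edgeR, and DESeq2 called 1 member, Cps1. Of all genes tested in the liver, 8.41% were lower at an unadjusted p under 0.05 in edgeR, and DESeq2 called 4.28% lower. The 8 genes were measured in the same 7 livers, so their shared direction is not 8 independent observations.

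Cps1 differed most. The KI livers had 2058 and 1846 CPM, and WT 1 to 5 had 2192, 2792, 2951, 3983 and 3254 CPM. Both KI values lay below all 5 WT values, although KI 1 was close to WT 1. The fitted level in KI was 36.6% lower (log2 -0.66 ± 0.22 SE, edgeR unadjusted p = 0.0144, adjusted p = 0.162). DESeq2 gave an adjusted p of 0.0314 for Cps1, and edgeR without WT 1 gave -0.77 with an adjusted p of 0.0617. Blocked by replicate number, the fit gave -0.31. Over all alternatives its adjusted p ran from 0.0314 to 0.763.

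Nags was the other member whose groups did not overlap. Its KI livers had 23.4 and 25.6 CPM, and WT 1 to 5 had 30.0, 28.1, 35.1, 29.3 and 35.7 CPM. The difference was -0.39 ± 0.14 on the log2 scale (edgeR unadjusted p = 0.0221, adjusted p = 0.198), 23.6% lower in KI. Cps1 and Nags were thus the members with both KI livers below the WT range, and neither passed the threshold in edgeR. The share of all genes that separate in this way was not counted, so the separation is a description of these members only.

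Ass1 had 107 and 77.9 CPM in the KI livers and 100.8, 121, 144, 166 and 119 CPM in WT 1 to 5. KI 1 lay within the WT range and KI 2 below it. The difference was -0.51 ± 0.21 (SE) for Ass1 alone (edgeR adjusted p = 0.250) and -0.59 ± 0.23 for the sum with Gm5424 (edgeR adjusted p = 0.223). Gm5424 itself had 533 and 393 CPM in KI and 507 to 944 CPM in WT, and was at -0.61 ± 0.23 (edgeR adjusted p = 0.219).

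The other members showed differences close to their errors. Otc had 123 and 114 CPM in the KI livers, and 136, 149, 149, 91.7 and 139 CPM in WT 1 to 5. Both KI livers were below 4 of the WT livers and above WT 4, and the log2 difference was -0.18 ± 0.18 (edgeR adjusted p = 0.633). Leaving out WT 4 gave -0.29 with an edgeR adjusted p of 0.128. Slc25a13 had 325 and 268 CPM against 300, 324, 364, 348 and 364 CPM, and was at -0.22 ± 0.14 (edgeR adjusted p = 0.449).

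Asl, Arg1 and Slc25a15 were shaped by the liver of WT 4. Asl had 187 and 148 CPM in KI, and 157, 199, 182, 319 and 181 CPM in WT 1 to 5. Arg1 had 768 and 686 CPM in KI, and 685, 756, 739, 1240 and 774 CPM in WT. Slc25a15 had 108 and 108 CPM in KI, and 98.2, 103, 98.6, 184 and 97.3 CPM in WT. With all 7 livers the log2 differences were -0.33 ± 0.26, -0.22 ± 0.23 and -0.12 ± 0.25 (edgeR adjusted p = 0.557, 0.652 and 0.849). Without WT 4 Arg1 moved to -0.04, and Slc25a15 to 0.11 with both KI livers above the other 4 WT livers.

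**Figure D3:**
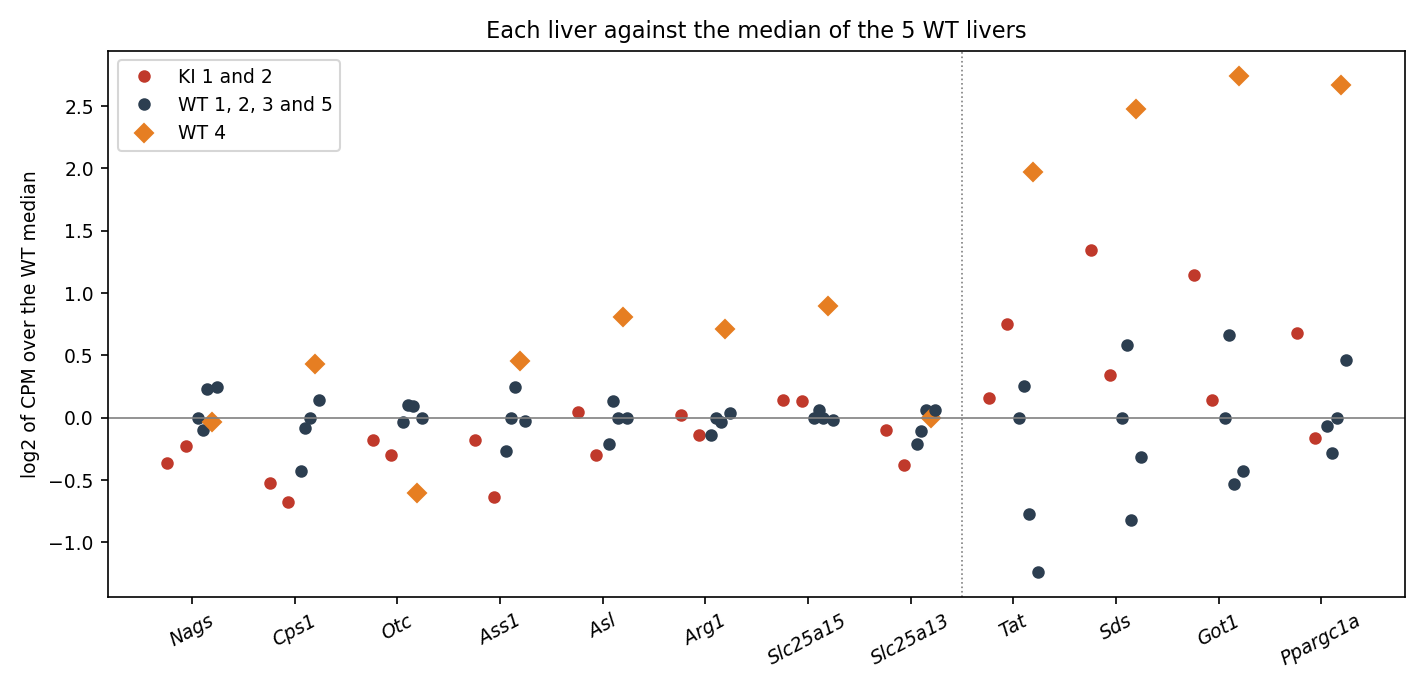
Level in each of the 7 livers as log2 of CPM over the WT median, for the 8 members and, right of the dotted line, Tat, Sds, Got1 and Ppargc1a. The 2 KI livers lie below all WT livers for Cps1 and Nags, and WT 4 is the highest for Cps1, Ass1, Asl, Arg1 and Slc25a15 and the lowest for Otc.

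WT 4 was the highest of the 7 livers for 5 of the 8 members (Cps1, Ass1, Asl, Arg1 and Slc25a15) and the lowest for Otc. Its Slc25a15 level was 1.69 times, its Arg1 level 1.60 times and its Asl level 1.60 times that of the next highest liver. Among 13098 genes with a mean of at least 1 CPM in the livers, 19.4% were highest in WT 4. Of the 7 listed genes of amino acid breakdown in hepatocytes, 6 were highest in WT 4, with the tyrosine aminotransferase Tat at 715 CPM against 77.5 to 307 CPM and the serine dehydratase Sds at 67.2 CPM against 6.81 to 30.6 CPM. The same was true of 6 of 15 listed regulators, with Ppargc1a, a coactivator of the fasting response, at 106 CPM against 13.8 to 26.8 CPM. Of 19 genes of arginine, ornithine and nitric oxide metabolism 4 (21.1%) were highest in WT 4, and of 11 genes of ammonia and glutamate handling 5. Among the latter Got1, the cytosolic aspartate aminotransferase, stood at 619 CPM against 64.0 to 204 CPM. The hepatocyte marker sum of WT 4, 236793 CPM, lay within the range of the other livers. WT 4 was singled out after their values were seen, and what set this liver apart was not tested.

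Markers of some other cell types differed between the KI and WT livers, where 3.89% of all genes tested were called higher and 1.68% lower. The 9 macrophage markers summed to 1652 and 1818 CPM in KI and 1166 to 1366 CPM in WT, with 4 of 9 called higher (Adgre1, Cd5l, Cd68 and Csf1r) and 0 lower. The 8 neutrophil markers summed to 6431 and 7692 CPM against 3986 to 5224 CPM, with 3 of 8 called higher (Prtn3, S100a8 and S100a9). Erythroid markers summed to 2566 and 2507 CPM against 2811 to 4209 CPM, with 1 of 5 tested called lower (Slc4a1). Of the 9 erythroid markers in the sum, 4 were at 0 in both KI livers and 2 in all WT livers. Hba-a2 and Hbb-b2 were at 0 in all 21 libraries. The 9 hepatocyte markers summed to 232934 and 227081 CPM in KI and 227706 to 257117 CPM in WT, with 0 of 9 called in edgeR and a median log2 difference of -0.15. Of 6 fibroblast markers 0 were called (median log2 difference -0.74), and of 5 endothelial markers 0 (0.24). Of 4 neuron markers tested, 1 was called higher and 1 lower. The part of these cell types in the lower values of the members was not tested.

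In the brain, 0.0% of 16322 genes were called higher and 0.0% lower. In edgeR an unadjusted p under 0.05 was reached by 457 genes upward and 1275 downward, and DESeq2 called 80 and 524. The absence of calls depended on WT 5: without this brain edgeR called 672 genes higher and 1026 lower, with 0 members among them. Otc and Nags were too low to be tested and 6 members were, of which 0 were called by edgeR or by DESeq2 and 0 had an unadjusted p under 0.05. Asl had 28.9 and 27.3 CPM in KI and 28.3, 32.5, 33.7, 32.6 and 37.2 CPM in WT 1 to 5 (log2 -0.26 ± 0.16 SE, edgeR adjusted p = 0.622). For Slc25a15 the KI brains had 12.3 and 12.8 CPM, both below the WT values of 17.0, 13.7, 14.7, 16.3 and 13.0 CPM, and the difference was -0.28 ± 0.18 (edgeR adjusted p = 0.622). The gap between KI 2 and WT 5 was small. Ass1 was at 0.14 ± 0.25, Slc25a13 at 0.00 ± 0.24, Cps1 at -0.28 ± 0.48 and Arg1 at -0.33 ± 0.92, whose sign changed without WT 1 (0.39), without KI 2 (0.05) and with the replicate number as a block (0.04).

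In the skin, 0.0247% of 16163 genes were called higher and 0.0% lower, and 6 members were tested with 0 called by edgeR or by DESeq2. None of the 6 had an unadjusted p under 0.05. Cps1 was at -1.25 ± 0.96 (SE), with 1.31 and 0.103 CPM in KI and 0.602 to 2.86 CPM in WT, and it was at -3.93 without KI 1 and at -0.38 without KI 2. Arg1 was at -2.63 ± 1.46 (edgeR adjusted p = 0.999), with 1.90 and 0.448 CPM in KI against the WT values above, and it was at -1.40 without WT 2 and at -3.97 without KI 1. Asl, the one member above 0, was at 0.18 ± 0.12, with 38.6 and 31.6 CPM in KI and 30.7 to 32.2 CPM in WT. Slc25a15 was at -0.05 ± 0.13 and Slc25a13 at -0.36 ± 0.26. Ass1 was at -0.48 ± 0.50 alone and at -0.22 ± 0.45 with Gm5424.

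The skins differed widely in keratinocyte markers. The 7 markers summed to 909 CPM in KI 2 and to 16538 CPM in WT 4, and these skins also had the lowest and the highest Ass1 (1.86 and 8.78 CPM), Cps1 (0.103 and 2.86 CPM) and Slc25a13 (6.13 and 12.4 CPM). The other KI skin, KI 1, had 13710 CPM of keratinocyte markers and 5.38 CPM of Ass1. The skins in between did not keep this order: WT 2, with 4185 CPM of the markers, had 2.64 CPM of Cps1 and 11.5 CPM of Slc25a13, against 1.31 and 8.68 CPM in KI 1, and WT 3, with 5432 CPM of the markers, had less Ass1 than WT 5 with 1512 CPM (3.75 and 3.95 CPM). Without KI 2 the Ass1 difference in the skin was 0.08 rather than -0.48. The other tested members had other extremes. Asl was lowest in WT 3 (30.7 CPM) and highest in KI 1 (38.6 CPM), and Slc25a15 was lowest in KI 1 (25.1 CPM) and highest in WT 3 (30.1 CPM). Arg1 was lowest in KI 2 (0.448 CPM) but highest in WT 2 (26.4 CPM). The part of keratinocytes in these values was not tested.

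**Figure D4:**
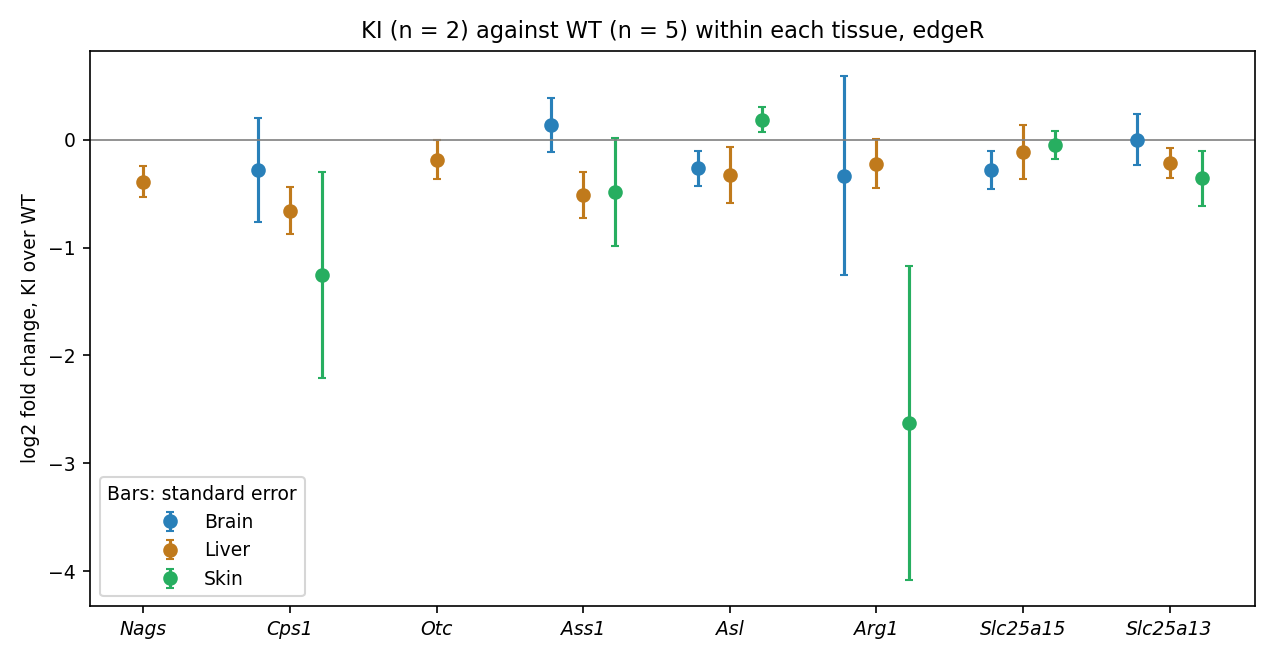
Fitted log2 fold change of KI over WT with its standard error for each member within brain, liver and skin, from edgeR with 2 KI and 5 WT mice per tissue; Otc and Nags were tested in the liver alone. All 8 liver points lie below 0 and none of the points in any tissue passed an adjusted p of 0.1.

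The difference of the KI effect between tissues was tested across all 21 libraries and 18062 genes. Between liver and brain 2.81% of genes were called in either direction, between liver and skin 0.0997%, and between skin and brain 0.0%. No member was called in any of these tests by edgeR or by DESeq2. In edgeR, 0 members had an unadjusted p under 0.05 in the first and the second test and 1 in the third (Otc, which had at most 11 counts in any brain or skin library). Across all genes, an unadjusted p under 0.05 in the third test was reached by 745 genes upward and 594 downward in edgeR, and DESeq2 called 37 and 19. A liver-specific effect on these genes was therefore not shown.

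Genes around the cycle were described from lists of related function. In the KI livers 0 of 11 genes of ammonia and glutamate handling were called in edgeR, with a median log2 difference of -0.27, and 0 of them in the brain and skin. Of 17 tested genes of arginine, ornithine and nitric oxide metabolism, 1 was called, the mitochondrial arginase Arg2. It rose in KI with 5.87 and 4.97 CPM against 1.69, 1.93, 0.830, 1.43 and 0.521 CPM in WT 1 to 5, with no overlap between the groups. The log2 difference was 2.07 ± 0.39 (SE, edgeR adjusted p = 0.0299). Leaving out either KI liver ended the call (adjusted p = 0.186 without KI 1 and 0.206 without KI 2), with the difference at 1.95 and 2.20, and so did the fit of 21 libraries (2.06, edgeR adjusted p = 0.113). In the brain Arg2 had 15.6 and 12.7 CPM in KI and 10.1 to 16.6 CPM in WT, and in the skin 14.4 and 3.10 CPM in KI and 3.38 to 15.4 CPM in WT, and no difference was called.

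Arg2 ran opposite to Arg1 across the tissues. In the WT mice the log2 difference of Arg2 was -2.76 ± 0.45 (SE) between liver and brain (edgeR adjusted p = 3.35e-05) and -2.03 ± 0.44 between liver and skin (edgeR adjusted p = 0.000755). Per length, the WT livers had 568.4 RPKM of Arg1 and 0.895 RPKM of Arg2, and the WT brains 1.10 RPKM of Arg1 and 10.5 RPKM of Arg2. The paralog of Slc25a13, the aspartate and glutamate carrier Slc25a12 (aralar), showed the same reversal: 24.4 ± 3.66 RPKM in the WT brains and 5.55 ± 0.232 RPKM in the WT livers (SD, n = 5), against 1.52 and 109 RPKM of Slc25a13. The log2 difference of Slc25a12 between liver and brain was -1.34 ± 0.16 (SE, edgeR adjusted p = 7.96e-07). Slc25a2, a second ornithine carrier, stayed under 1 CPM in every library.

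Of the 7 listed enzymes of amino acid breakdown, 1 was called in the KI livers, beside 3.89% of all genes called higher and 1.68% lower there. Tdo2, the tryptophan dioxygenase, fell, with 1.37 and 0.578 CPM in KI against 3.95, 2.55, 3.75, 3.47 and 4.51 CPM in WT (log2 -1.92 ± 0.39 SE, edgeR adjusted p = 0.0384). Without KI 2 the call ended (-1.42, edgeR adjusted p = 0.293), as it did in the fit of 21 libraries (-1.94, edgeR adjusted p = 0.389). Of the listed regulators, Cebpd, an inducible C/EBP factor, was called higher in the KI skin with 92.0 and 89.8 CPM in KI against 32.3 to 49.0 CPM in WT (1.21 ± 0.12 SE, edgeR adjusted p = 0.0899), and each of the 7 omissions ended the call by edgeR. The call also ended with library totals (edgeR adjusted p = 0.230), in the fit of 21 libraries (0.289), with the replicate block (0.910) and with the Y-linked covariate (0.131), with the difference between 1.11 and 1.28, and DESeq2 kept it. Cebpd in the liver had 41.3 and 37.9 CPM in KI and 18.8 to 46.7 CPM in WT and was called only without WT 4 (0.72, edgeR adjusted p = 0.0289) or with the replicate number as a block (0.58, edgeR adjusted p = 0.0609).

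**Figure D5:**
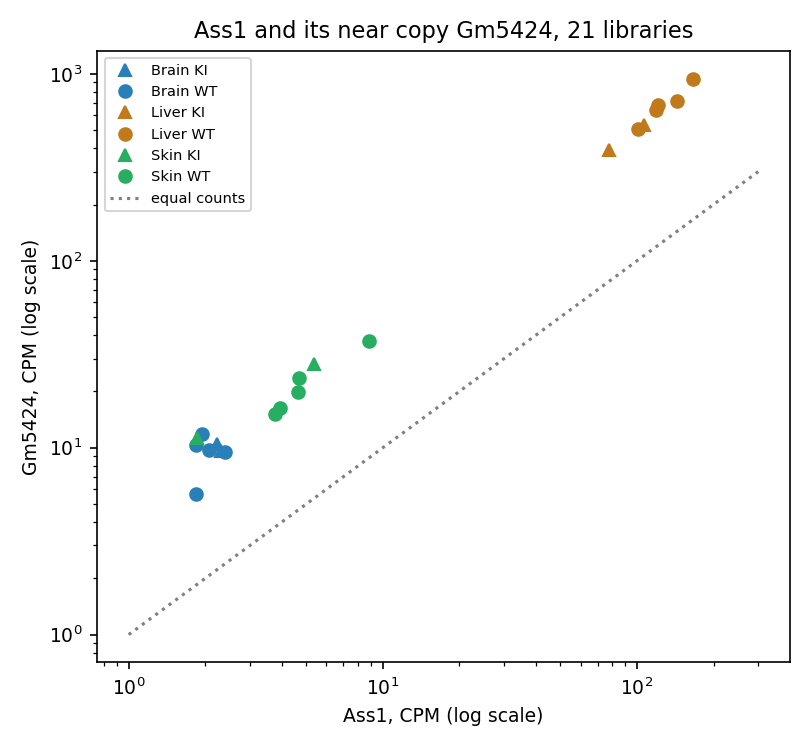
CPM of Ass1 (horizontal) and of its near copy Gm5424 (vertical), both on log scales, in the 21 libraries, with a dotted line at equal counts. Every library lies above the line, with 3.08 to 6.11 counts on Gm5424 for each count on Ass1.

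Genes whose log2 CPM followed each member most closely across the 21 libraries were described over points that share mice, with the 7 livers far above the other libraries. Ass1 followed Gm5424 (Pearson r 0.9967), which took 3.08 to 6.11 counts for each count on Ass1, and then Slc25a13 (r 0.9936). Not all reads of the near copy Gm5424 can be told apart from those of Ass1, so these were not measured separately. Cps1 followed Gm4737, Rgn and Cyp4a32 (r 0.9931 to 0.9947), Otc followed Hrg, Cyp2j5 and Rdh7 (r 0.9944 to 0.9946), and Slc25a13 followed Ces2a, F10 and Cyp4a32 (r 0.9952 to 0.9972). Asl was closest to Cyp7a1, Mir6370 and Cyp3a44 (r 0.9867 to 0.9900), Arg1 to Foxa3, Rnf128 and Sowahb (r 0.9797 to 0.9833), Nags to Nr1h4, Cideb and Tm4sf4 (r 0.9821 to 0.9857), and Slc25a15 to Ctsl, Ccbl2 and Hpgd (r 0.9824 to 0.9842). These values describe 18061 genes and carry no test.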

How the data were processed

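RNA of the brain, liver and skin of 2 KI and 5 WT mice was measured in 21 libraries. According to the study's methods, TruSeq libraries, whose kit does not mark the strand, were read as paired ends, trimmed and aligned to mm9 with TopHat2, and the submitters' processing notes name HTSeq. The counting mode and annotation are not given in the sources used here. Raw counts of reads on each gene symbol were deposited, with 5 summary lines that were left out; 80.5% to 87.6% of the reads placed once fell on genes.

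The model was edgeR 4.0.16 (R 4.3.3), with filterByExpr, TMM factors and its quasi-likelihood F test, KI against WT in each tissue alone, the tissues in the 15 WT libraries, and differences between effects in all 21. Calls needed a Benjamini-Hochberg adjusted p under 0.1 over all genes tested and, between tissues, at least 2-fold. Standard errors were the fold change over the root of F. RPKM used GENCODE vM1 lengths. Near copies were searched with BLAST+ 2.17.0. The steps were tested on simulated counts. Alternatives were DESeq2 1.42.0 (Wald test, size factors), library totals, no filter, an adjusted p of 0.05, 1 fit of 21 libraries, blocks, a Y-linked covariate, no limit on the fold, and libraries left out.

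All members were named, with called genes of 4 related lists, 3 paralogs and the 3 genes most alike to each member; the members and lists were chosen with earlier results of these data known. For 1 gene of the list of regulators the result is not reported here. KI and WT replicate numbers were not taken as pairs (correlations of same-numbered deviations from -0.0704 to 0.166, 2 pairs per tissue). Libraries of 1 genotype and number in different tissues were taken as 1 mouse, which the labels do not state. Y-linked levels matched in all 3 tissues, but they were low in WT 1, 2, 4 and 5 and cannot tell these mice apart. Correlations between tissues were -0.00434 to 0.171. Nothing says that the mice came from separate litters, so p-values measure the spread between these mice. Duplicate libraries were not found (chi-square per degree of freedom of 10.87 or more).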

Additional observations from a re-analysis of the deposited data

Results flagged for a closer look

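A sample was taken as standing apart from its group of 5 WT mice when its gap to the nearest of the others exceeded Dixon's 95% limit. This was asked of 23 pairs of member and tissue, and chance alone would mark about 1 in 20.

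Of 7 cases, 4 were in the liver of WT 4. Otc was low there with 91.7 CPM, next to 136 CPM in the nearest WT liver. Asl (319 CPM, next 199 CPM), Arg1 (1240 CPM, next 774 CPM) and Slc25a15 (184 CPM, next 103 CPM) were high. In the skin of WT 2, Arg1 (26.4 CPM, next 7.82 CPM) and Nags (0.905 CPM, next 0.0330 CPM) were high, in the library that also carried gut epithelium genes. In the skin of WT 4, which had the highest keratinocyte marker sum, Ass1 was high (8.78 CPM, next 4.66 CPM). What set these libraries apart was not tested.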

How the results depend on the processing

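All 8 members stayed called higher in the WT livers than in the brain and than in the skin under every alternative run, with log2 differences from 2.09 (Slc25a15 against the skin, library totals) to 13.46 (Otc against the brain). In the liver the count of members called lower in KI was 0 except with DESeq2 and without WT 1, where it was 1 (Cps1). Between skin and brain it was 5 higher, but 3 with the replicate block and 3 without WT 2, which also had 1 lower, 4 with DESeq2 size factors, library totals, an adjusted p of 0.05, without WT 4 and without WT 5, and 6 without WT 1 and with no limit on the fold.

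The counts over all genes moved more. Brain KI calls, 0 higher and 0 lower, became 80 and 524 with DESeq2, 173 and 441 in the fit of 21 libraries and 783 and 1382 with the replicate block, and leaving out 1 library gave 0 to 672 and 0 to 1026, the upper values without WT 5. Liver KI calls (582 and 251) became 302 and 81 at an adjusted p of 0.05, 156 and 86 in the fit of 21 libraries, 296 and 112 with the Y-linked covariate, 641 lower with DESeq2, and 49 to 784 higher and 7 to 506 lower without 1 library, lowest without KI 2 and highest without WT 4. Skin KI calls (4 and 0) became 96 and 11 with DESeq2, 22 and 1 in the fit of 21 libraries, 1 higher with the Y-linked covariate, 0 with library totals, at an adjusted p of 0.05 and with the block, and 0 to 1 higher without 1 library. Liver against skin gave 2038 higher and 7263 lower with library totals, and 5555 higher with no limit on the fold; skin against brain gave 6672 lower with no limit. For the KI effect, liver minus brain (319 and 189) gave 751 and 638 with DESeq2, 154 and 66 at an adjusted p of 0.05, 122 lower with library totals, and 0 to 473 higher and 0 to 408 lower without 1 library; liver minus skin (12 and 6) gave 61 and 58 with DESeq2, 3 lower at 0.05, and 1 to 18 higher and 0 to 14 lower without 1 library; skin minus brain (0 and 0) gave 37 and 19 with DESeq2 and 1 higher with library totals.

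Reversals concerned log2 differences that had not passed the test. The replicate block compared KI 1 and 2 with WT 1 and 2 alone. Its KI difference was 0.036 for Arg1 in the brain, 0.046 for Arg1 and 0.14 for Slc25a15 in the liver, and 0.072 for Slc25a15 in the skin. Slc25a13 in the brain became 0.0021 with DESeq2 size factors, 0.037 with library totals, 0.0030 with no filter, 0.0038 with DESeq2, 0.085 in the fit of 21 libraries, 0.15 with the block and 0.0076 with the Y-linked covariate. Asl between skin and brain became -0.058 with DESeq2 size factors and with DESeq2 and -0.062 with library totals. Leaving out 1 library gave -0.83 to 0.39 for Arg1 in the brain, -0.14 to 0.14 for Slc25a13 in the brain, -0.19 to 0.11 for Slc25a15 in the liver, -1.39 to 0.081 for Ass1 in the skin, -0.11 to 0.047 for Slc25a15 in the skin, -0.029 to 0.082 for Asl between skin and brain, -3.49 to 0.82 for Nags between skin and brain, -0.27 to 0.042 for Arg2 in the brain and -1.36 to 0.79 for Arg2 in the skin. For Cebpd in the skin the call ended with the block, library totals, the fit of 21 libraries, the Y-linked covariate and an adjusted p of 0.05, and the block gave one in the liver. The fit of 21 libraries ended the liver calls of Arg2 and Tdo2. Ass1 and Gm5424 as a sum kept every call of Ass1. With 2 KI mice per tissue, and few counts on Otc and Nags outside the liver, smaller differences could not be detected; the causes of these changes were not tested.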
